A study of Mus musculus with 12 samples.

Results

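The 5 wild-type libraries of a mouse liver cancer study, titled WT1, WT1359, WT1838, WT2 and WT3, were described on their own. They were chosen by the wild-type genotype in their labels and make up 5 of the 12 libraries of the series. The other 7 are from Pck1-null mice and do not enter here. Each library is total RNA, extracted with Trizol and with an RNA integrity number above 8.0, from hepatocellular carcinoma that diethylnitrosamine (DEN) had induced in mouse liver. The strain, age, sex, dose and number of tumours per sample are not stated in the labels, nothing says that the 5 libraries came from 5 different animals, and no normal liver was analysed here. All 5 share the same genotype and treatment, so no conditions were contrasted and no test between groups was run. If libraries share an animal, they are not independent, and their spread is not a spread between animals. The spread between libraries, which can be technical in part, is given here by the standard deviation (SD, n = 5) and by each library's own value.

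DEN is a carcinogen that hepatocytes of the centre of the lobule activate to a DNA-alkylating agent, and the tumours that follow are mostly made of altered hepatocytes. Normal hepatocytes secrete most plasma proteins and divide metabolic work by position: those next to the portal vein make urea and glucose, and those around the central vein, under Wnt and beta-catenin signalling, make glutamine and hold many cytochrome P450 enzymes. Tumour tissue also holds endothelium, macrophages, fibroblasts and other cells. In such bulk samples fewer cells of a type and less RNA per cell cannot be told apart.

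WT1359 and WT3, with 44544844 and 45161928 counts, are called the deeper libraries here, and WT1, WT1838 and WT2, with 17462102 to 20133290 counts, the shallower ones. WT1359 and WT3 were also the most alike, with 131 genes at least 4-fold apart, against 494 to 991 in the other 9 pairs. WT2 stood apart in Xist, the noncoding RNA that silences an X chromosome, at 0.502 CPM in WT1, 0.0429 in WT1359, 0.670 in WT1838, 117 in WT2 and 0.120 in WT3. The Y-linked gene Ddx3y gave 46.9, 27.04, 48.2, 0 and 31.7 CPM in the same order, with 0 counts in WT2, which allows at most 3 counts there. Kdm5d, Eif2s3y and Uty were also at 0 counts in WT2 and at 6.83 to 25.9 CPM in the other 4. CPM are counts per 1000000 counts of a library after TMM scaling, which keeps a few very abundant genes from setting the scale. With total counts alone as the scale, the median of all genes shifted by −0.01 in WT1, 0.06 in WT1359, −0.22 in WT1838, 0.29 in WT2 and −0.11 in WT3 (log2), so differences are relative to the TMM scale. Unless libraries are named, 5 values in a row stand for WT1, WT1359, WT1838, WT2 and WT3 in this order.

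Per unit of transcript length, the tumours were dominated by secreted liver proteins. Albumin (Alb), the main protein of plasma, had the highest mean level at 86398 ± 42427 TPM (transcripts per 1000000, from counts per kilobase of exon scaled to the same total in each library), with 131469 TPM in WT1, 33417 in WT1359, 122302 in WT1838, 53952 in WT2 and 90852 in WT3. Albumin was thus over 2-fold higher in WT1 and WT1838 than in WT1359 and WT2, with WT3 in between. Transferrin (Trf), the iron carrier, followed at 31733 ± 12242 TPM and apolipoprotein E (Apoe) at 30388 ± 2793 TPM. Apoe and transthyretin (Ttr), the thyroxine carrier, at 8169.7 ± 634 TPM, had the smallest spread relative to their means among the 20 most abundant genes. Neighbours in this order, such as Trf, Apoe and the mitochondrial COX1 at 26245 ± 8603 TPM, did not differ beyond their spread.

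The 20 genes with the highest mean TPM took 27.99% to 41.8% of all TPM. Of them, 15 encode secreted proteins, namely albumin, transferrin, 5 apolipoproteins (Apoe, Apoa1, Apoa2, Apoa4, Apoc1), the haem and haemoglobin binders Hpx and Hp, fetuin A (Ahsg), the protease inhibitors Serpina1d and Serpina1b, the vitamin D carrier Gc, Ttr and complement C3. Another 4 (COX1, CYTB, ND2, ND1) are encoded by mitochondrial DNA. The remaining one, Gstm1, is a glutathione transferase, an enzyme of detoxification. Apoa4, an apolipoprotein of lipid transport, had the widest spread relative to its mean among them, at 12244 TPM in WT1, 1759 in WT1359, 3572 in WT1838, 11009.5 in WT2 and 7452 in WT3, and was lowest in WT1359. With the longest transcript in place of the union of exons, 19 of the 20 genes stayed in the top 20.

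**Figure D1:**
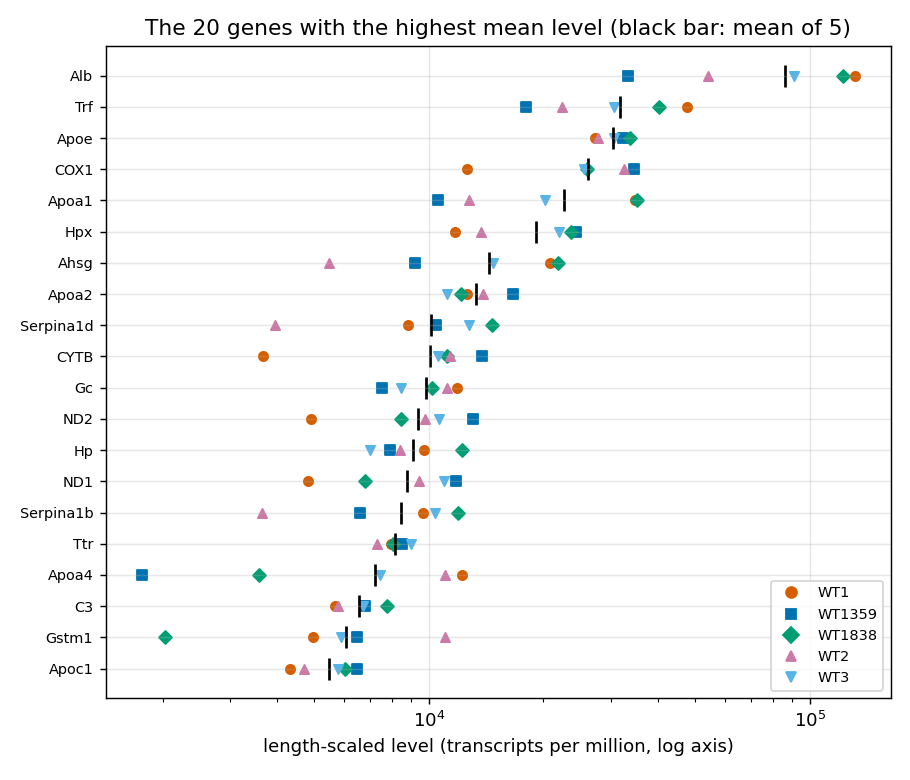
Length-scaled level in TPM (log axis) of the 20 genes with the highest mean, with 1 point per wild-type library and a black bar at the mean of 5. Alb lies above all other genes in WT1, WT1838, WT2 and WT3, while in WT1359 COX1 (34572 TPM) and Alb (33417 TPM) are close.

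The promoters of Alb and of its neighbour Afp are shown because these genes of 1 cluster on chromosome 5 encode the adult and the fetal main plasma protein and because Afp varied far more than Alb. Both windows run from 250 bases before to 50 after the RefSeq transcription start (GRCm38.p6, plus strand), Alb (gene body chr5:90460897-90476602) at chr5:90460620-90460919 and Afp (gene body chr5:90490737-90508907) at chr5:90490464-90490763. Capitals mark GTTAAT, a half-site of the hepatocyte factor HNF1, searched on both strands.
Alb promoter: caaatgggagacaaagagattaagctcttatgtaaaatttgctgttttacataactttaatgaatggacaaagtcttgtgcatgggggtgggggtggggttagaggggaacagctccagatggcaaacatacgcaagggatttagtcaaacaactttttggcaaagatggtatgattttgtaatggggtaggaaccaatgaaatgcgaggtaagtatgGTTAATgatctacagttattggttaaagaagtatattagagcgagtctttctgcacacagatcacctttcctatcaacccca
Afp promoter: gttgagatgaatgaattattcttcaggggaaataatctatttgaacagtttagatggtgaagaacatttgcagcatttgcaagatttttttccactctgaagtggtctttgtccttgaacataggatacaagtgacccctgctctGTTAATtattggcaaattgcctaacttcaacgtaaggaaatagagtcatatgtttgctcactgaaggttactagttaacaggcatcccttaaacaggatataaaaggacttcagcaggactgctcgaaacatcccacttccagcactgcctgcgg
Each window held 1 match. Among plasma protein genes with a window, 8 of 20 held GTTAAT, and 5 of these are near-identical Serpina1 copies, while 5.86% of 9663 genes did. A match describes the letters of a window and no binding was measured.

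Of 46095 genes in the table, 23749 had a count in 1 of the 5 libraries or more, and 13095 with a mean of at least 1 CPM were kept. A gene can pass this filter through 1 high library alone. Counts of genes highest in a library can thus include genes that were kept only through it. A gene was called variable when its highest library was at least 4-fold above its lowest on log2 CPM with a prior count of 2. This held for 1965 genes, or 15% of those kept, and the median gene spanned 1.84-fold. WT2 was the highest library in 724 of the variable genes (36.8%). Without WT2, with filter and scaling redone, the number of variable genes was 1290. Over all genes kept, the highest library was WT1 in 23.9%, WT1359 in 18.4%, WT1838 in 22.1%, WT2 in 23.5% and WT3 in 12%. The lowest library was WT1 in 24.8%, WT1359 in 17.4%, WT1838 in 22.3%, WT2 in 24.2% and WT3 in 11.3%. Both deeper libraries lay above all 3 shallower ones in 18.2% of genes and below them in 14.9%. Counts of members below are read against these shares.

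Programmes were described with 58 gene lists holding 1246 members found in the table, of which 1090 were kept. The lists overlap, and 80 genes are in more than 1 of them. A list's score is the mean log2 CPM of its kept members in a library. Among lists with at least 3 members kept, the widest scores between libraries were those of Xist and the Y-linked genes (SD 2.11 on the log2 scale), the hypoxia response (1.08), beta-catenin targets (1.02), pericentral genes (1.01) and female-biased liver genes (1.01). Major urinary proteins, the urea cycle, tyrosine breakdown, oncofetal markers and tryptophan breakdown completed the first 10, at 0.92 to 0.81. The steadiest scores were those of ribosomal proteins (0.12), hepatocyte transcription factors (0.14), the growth hormone axis (0.18), class I antigen presentation (0.21) and B and plasma cell genes (0.23). A steady score can hold members that vary in opposite directions: 4 of 8 B and plasma cell genes and 8 of 16 growth hormone axis genes were variable, against 0 of 32 ribosomal protein genes. The first count was 2 without WT1359 and 1 without WT1838, and the second 3 without WT1. Some wide scores rested on 1 library. Without WT2, with members and scaling kept, the SD of Xist and the Y-linked genes was 0.52 and that of the hypoxia response 0.22. That of major urinary proteins was 0.49, against 0.92 over all 5, although 1 of its 5 kept members was highest in WT2. Without WT1, in the same way, the SD was 0.60 for female-biased genes and 0.50 for oncofetal markers, against 0.82 for the latter over all 5. With filter and scaling redone without WT2, the first 3 SDs were 0.34, 0.21 and 0.69. In that redone setting 5 of the 10 widest lists were still among the widest 10 without WT2, and 6 were without WT1.

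**Figure D2:**
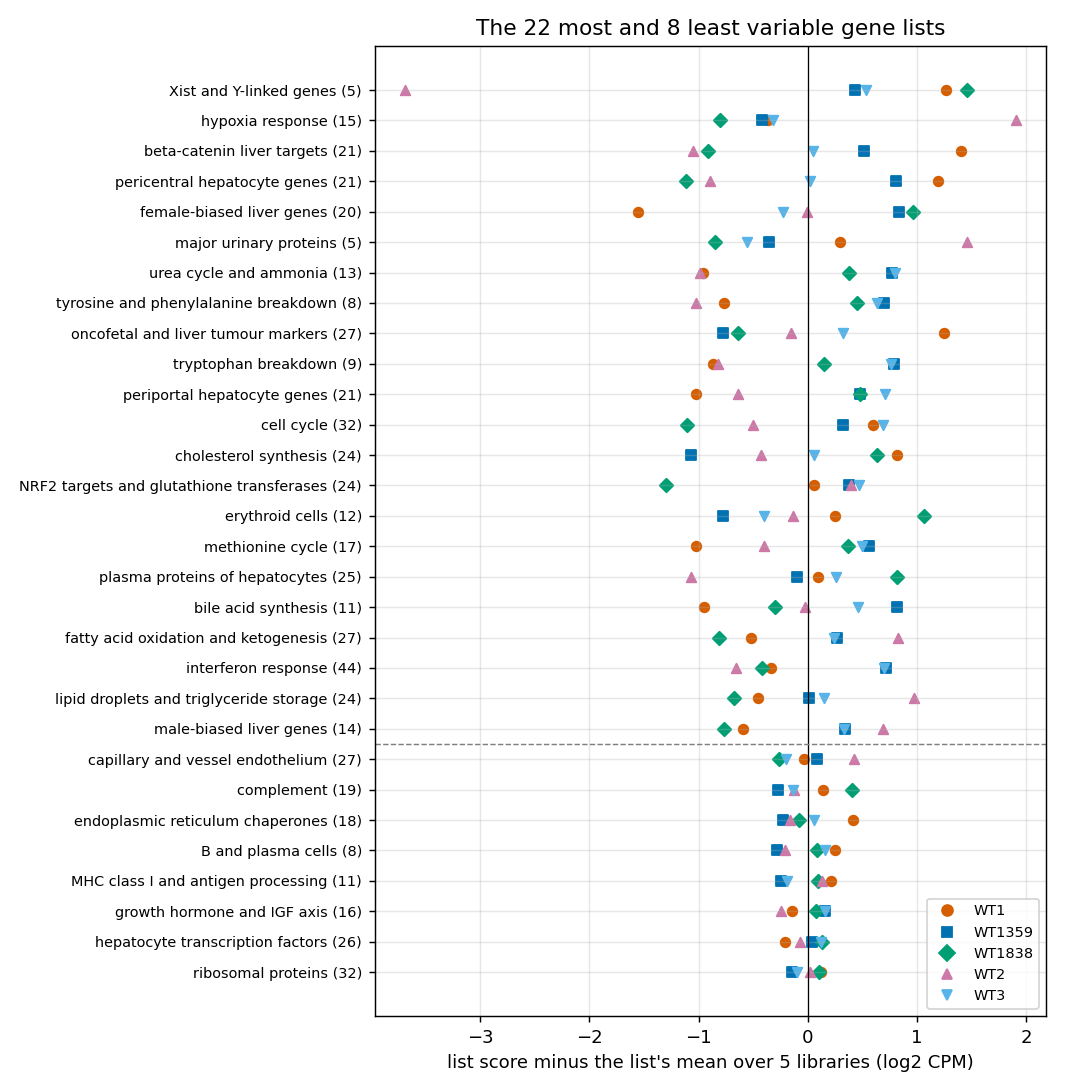
Score of each gene list in each library minus the list's mean over the 5 libraries (x axis, log2 CPM), for the 22 lists with the largest and the 8 with the smallest SD of the score, with the number of kept members in brackets. WT2 lies far to the right for the hypoxia response, WT1 for oncofetal markers and beta-catenin targets, and WT1838 far to the left for NRF2 targets, while WT1359 and WT3 lie close together in most lists.

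Secreted proteins of hepatocytes were abundant in all 5 libraries, most in WT1838 and least in WT2. The 25 plasma protein genes summed to 254227, 120674, 322763, 101851 and 223760 CPM. Of these genes, 11 were variable, 21 were highest in WT1838 and 20 were lowest in WT2, while 2 were variable without WT2 and 5 without WT1838. Alb itself stood at 117022 CPM in WT1, 29730.3 in WT1359, 134194 in WT1838, 39738 in WT2 and 90694 in WT3. Serpina1e, an alpha-1-antitrypsin copy, was at 1711, 1122, 6426, 15.3 and 2092 CPM, so that WT2 lay over 50-fold below every other library, although reads of near-identical Serpina1 copies can be split. Ahsg, an inhibitor of mineral deposition, stood at 17359, 7689.9, 22539, 3780.4 and 13784 CPM and was also lowest in WT2.

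Clotting and complement genes had fewer variable members than plasma protein genes. Of 19 coagulation genes 0 were variable, with fibrinogen chain Fga at 6389.97, 4266, 10262, 2915 and 6186 CPM and factor IX (F9) at 121, 133, 141, 159 and 128 CPM. All 5 values of F9 lay within 2-fold of each other. Of 19 complement genes 3 were variable (15.8%), near the 15% of all genes kept, and 1 without WT1 or without WT1359. Among them was Cfb, the factor B of the alternative pathway, at 29.3, 5.92, 19.02, 12.7 and 8.27 CPM, while C3 was at 11099, 13298, 18674, 9335 and 14684 CPM. Of 13 apolipoproteins kept, 3 were variable, and 1 without WT1838. Apoa1, the main protein of high-density lipoprotein, was at 16364 CPM in WT1, 4976 in WT1359, 20376 in WT1838, 4946 in WT2 and 10623 in WT3, and Apoa2, its partner, was within 2-fold at 2569, 3395, 3063, 2336 and 2557 CPM.

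Acute phase genes, which the liver induces in inflammation, differed in which library was high. Serum amyloid A1 (Saa1) stood at 30.7 CPM in WT1, 65.1 in WT1359, 102 in WT1838, 226 in WT2 and 23.3 in WT3, highest in WT2. Hamp, which encodes the iron hormone hepcidin, stood at 18.7 CPM in WT1, 331 in WT1359, 28.1 in WT1838, 17.5 in WT2 and 327 in WT3, so that both deeper libraries lay more than 10-fold above the other 3. The haemoglobin scavenger Hp, at 5933, 4831, 9205, 4243 and 4805 CPM, and C-reactive protein (Crp), at 299, 325, 409, 299 and 244 CPM, stayed within 3-fold. Of 24 acute phase genes 6 were variable, and 3 without WT1. The list's score was highest in WT1838, or in WT2 with total counts as the scale.

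The score of the regulators that define hepatocytes was steady (SD 0.14), while the median member spanned 2.07-fold, against 1.84-fold for all genes kept. Hnf4a, the nuclear receptor at the centre of hepatocyte identity, was at 631 CPM in WT1, 665 in WT1359, 629 in WT1838, 446 in WT2 and 661 in WT3. Cebpa, a regulator of hepatocyte metabolism, was at 244, 296, 321, 493 and 283 CPM and highest in WT2. Of 26 hepatocyte transcription factors 4 were variable (15.4%), near the 15% of all genes kept, and 1 without WT1. Among the 4, the circadian factor Dbp was at 1.003, 8.37, 8.64, 5.54 and 14.1 CPM, lowest in WT1, and Nr0b2, the bile acid-responsive repressor SHP, was at 62.8, 62.3, 83.5, 15.4 and 68.8 CPM, lowest in WT2. Among 32 ribosomal protein genes and 18 chaperones of the endoplasmic reticulum, 0 and 0 were variable. The main chaperone Hspa5 (BiP) was at 1154, 586, 677, 826 and 817 CPM, and 15 of the 18 chaperones were highest in WT1.

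Nitrogen and amino acid metabolism divided the tumours into WT1 and WT2 on the low side and the other 3 on the high side. Scores of the urea cycle list were 8.19, 9.92, 9.53, 8.16 and 9.94 (log2 CPM), and 8 of 13 members were variable. Ass1 (argininosuccinate synthase), the step that brings aspartate into the cycle, was at 684 CPM in WT1, 5563 in WT1359, 3155 in WT1838, 876 in WT2 and 5698 in WT3, and Asl (argininosuccinate lyase), the next step, at 162, 2126, 1006, 414 and 2022 CPM. Got1, the cytosolic aspartate aminotransferase, showed the same division at 119, 1442, 836, 116 and 1348 CPM. In these 3 genes WT1 and WT2 lay below WT1359, WT1838 and WT3 without overlap. Which of WT1 and WT2 scored lowest depended on the scale, WT2 with TMM and WT1 with total counts. Arg1 (arginase), which releases urea, was at 726, 3382, 2936, 1696 and 3852 CPM, with WT2 closer to WT1838.

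Breakdown of tyrosine, tryptophan and methionine had a like division. Tat, the first enzyme of tyrosine breakdown, was at 748 CPM in WT1, 3559 in WT1359, 3486 in WT1838, 316 in WT2 and 3612 in WT3. Tryptophan breakdown scored 6.21, 7.87, 7.23, 6.25 and 7.84 (log2 CPM), with Tdo2, its first enzyme, at 614, 1368, 793, 420.2 and 1577 CPM and Kynu (kynureninase) at 76.7, 376, 143, 109 and 351 CPM. Mat1a, the liver's methionine adenosyltransferase, was at 1214, 9546, 6286, 1777 and 8771 CPM and Cth, which makes cysteine, at 117, 2457, 546, 191 and 2114 CPM. Nnmt (nicotinamide N-methyltransferase), which uses methyl groups from methionine, had the widest range of that list, at 2.61 CPM in WT1, 765 in WT1359, 383 in WT1838, 56.1 in WT2 and 784 in WT3.

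Glucose production followed the same order in part. Pck1, the cytosolic phosphoenolpyruvate carboxykinase that starts glucose synthesis and that the knockout mice of the series lack (chr2:173153048-173159273), was measured at 1596 CPM in WT1, 5265 in WT1359, 5337 in WT1838, 1003 in WT2 and 5548 in WT3. WT1 and WT2 lay at least 3-fold below the other 3 libraries. Fbp1 (fructose bisphosphatase), a later step, was at 478, 1698, 1095, 632 and 1719 CPM, and Sds, which turns serine to pyruvate, at 70.3, 977, 970.4, 199.8 and 996 CPM. Glycogen phosphorylase Pygl was flat at 364, 340.2, 339, 354 and 389 CPM. Of 16 genes of gluconeogenesis and glycogen, 7 were variable, and without WT2 4 were.

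Mitochondrial energy genes were higher in both deeper libraries. Of 28 nuclear genes of oxidative phosphorylation 26 lay above all shallower libraries in both, and of 17 genes of the tricarboxylic acid cycle 15 did. With counts thinned to the smallest library these numbers were 26 and 15, and with scaling by total counts alone 22 and 14. Atp5b, a catalytic subunit of ATP synthase, was at 952 CPM in WT1, 2294 in WT1359, 1138 in WT1838, 1097 in WT2 and 2199 in WT3, and Fh1 (fumarase) at 139.9, 766, 301, 163 and 764 CPM. The differences were small in size: 0 of the 28 were variable, and of the 17 only Fh1. WT1 was lowest in 26 of the 28. Depth and the other traits that WT1359 and WT3 share cannot be told apart.

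Transcripts of mitochondrial DNA took 3.30 ± 1.11% of counts (SD, n = 5), least in WT1. COX1, a subunit of cytochrome c oxidase, was at 7392, 20291, 18816, 15810.3 and 16814 CPM. COX3, another subunit of the same complex, had a mean of 152 TPM, far below the TPM of COX1. ATP6, of ATP synthase, was at 26.2, 13.4, 52.4, 74.7 and 11.3 CPM, lowest in the deeper libraries. Whether the counting dropped reads that match nuclear copies of these genes was not tested.

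Lipid genes set WT2 apart in storage and WT1359 in cholesterol synthesis. Scd1, the stearoyl-CoA desaturase, had the highest mean TPM of the fatty acid synthesis list and was at 5604 CPM in WT1, 4428 in WT1359, 5899.9 in WT1838, 10718 in WT2 and 4762 in WT3. Thrsp, a lipogenic nuclear protein, was at 25.1, 52.1, 53.2, 435 and 26.4 CPM, and the lipid droplet proteins Plin4 and Cidea were at 0.351, 8.71, 3.55, 60.1 and 5.10 CPM and 0.1003, 1.31, 0.134, 20.1 and 0.983 CPM, all highest in WT2. Plin2, the general droplet coat, was at 786, 392, 292, 535 and 427 CPM and highest in WT1. In the list of 24 droplet and triglyceride genes 14 were variable and 12 were highest in WT2, and without WT2 9 were variable.

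Genes that burn fatty acids and make ketone bodies were also highest in WT2, in 17 of 27, and 8 were variable, or 5 without WT2. Cyp4a14, a fatty acid hydroxylase and target of the receptor PPAR alpha, was at 25.7 CPM in WT1, 229 in WT1359, 11.5 in WT1838, 283 in WT2 and 219.9 in WT3. Acaa1b, the peroxisomal thiolase, was at 265, 508, 148, 1079 and 376 CPM. Both were lowest in WT1838. The mitochondrial thiolase Acaa2 was steady at 558, 641, 669.8, 534 and 672 CPM.

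Cholesterol synthesis was lowest in WT1359, in 21 of 24 genes. Sqle (squalene epoxidase), a rate-controlling step, was at 125 CPM in WT1, 13.4 in WT1359, 131 in WT1838, 69.3 in WT2 and 81.6 in WT3, and Cyp51, which removes a methyl group from lanosterol, at 269, 30.7, 156, 58.5 and 115 CPM. In both genes WT1359 lay lowest and WT1 or WT1838 highest. The list held 12 variable genes, and 4 without WT1359.

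Bile acid synthesis varied most in its cytochrome P450 genes. Cyp7a1, the rate-limiting enzyme of the classical pathway, was at 1.81 CPM in WT1, 54.4 in WT1359, 6.56 in WT1838, 32.5 in WT2 and 18.6 in WT3, and Cyp8b1, which makes cholic acid, at 1.56, 35.2, 9.71, 20.4 and 20.2 CPM. Cyp7b1 of the alternative pathway was at 6.02, 83.3, 9.71, 13.8 and 75.9 CPM, high in the deeper libraries. Scp2, the peroxisomal thiolase of the side chain, was at 1074, 1253, 696, 1609.96 and 1215 CPM. WT1 was lowest in 6 of 11 genes, and 4 of 11 were variable, or 2 without WT1. Of the transporters that move these products, Slc10a1, which takes bile acids up from blood, was at 179, 254, 282, 226 and 197 CPM. Abcg5 and Abcg8, which together export sterols into bile, were at 91.5, 474, 251, 53.2 and 445 CPM and 90.9, 457, 203, 35.3 and 445 CPM, both lowest in WT2 and highest in the deeper pair.

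Of 37 drug-metabolizing cytochrome P450 genes 22 were variable, a share of 59.5%, while the summed level of the list stayed between 12206 and 16098 CPM. Cyp2e1, which activates DEN, was at 2426 CPM in WT1, 2170.2 in WT1359, 357 in WT1838, 591 in WT2 and 555 in WT3, and both WT1 and WT1359 lay over 3-fold above the other 3. Cyp2b10, the classic target of the receptor CAR, was at 8.68, 159.6, 167, 9.14 and 123 CPM. Cyp2a5, an enzyme of nitrosamine and nicotine oxidation, was at 605, 1521, 97.2, 1999 and 1392 CPM and lowest in WT1838, and Cyp2c29 was steady at 667, 863, 685, 669 and 558 CPM. Reads of these families can be shared between near-identical copies.

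Detoxification genes under NRF2, a transcription factor of the oxidative stress response, set WT1838 apart. Scores of the list were 6.63, 6.96, 5.28, 6.97 and 7.04 (log2 CPM), and 18 of 24 members were lowest in WT1838. Gstm3, a glutathione transferase, was at 706 CPM in WT1, 1127 in WT1359, 53.8 in WT1838, 986 in WT2 and 790.04 in WT3, and the cystine importer Slc7a11 at 45.8, 22.4, 0.469, 58.4 and 37.2 CPM. Cbr3, a carbonyl reductase, was at 24.03, 91.3, 2.88, 162 and 90.6 CPM, and Gclm, a subunit of the enzyme that starts glutathione synthesis, was steady at 175, 199.6, 133, 213 and 175 CPM. The list held 10 variable genes and 4 without WT1838. The antioxidant response element, TGACNNNGC with N for any base, was searched on both strands of the promoter windows. Of 21 list members with a window 6 held it (28.6%), against 17.1% of genes kept with a window. WT1838 was also the library with the most of some long nuclear RNAs: Neat1 was at 63.4, 119, 541, 79.1 and 86.7 CPM, Malat1 at 238, 92.7, 692, 144 and 191 CPM and Kcnq1ot1 at 1.86, 0.880, 20.4, 1.04 and 1.13 CPM. These 3 were chosen after their values were seen, and their part in the other results of WT1838 was not tested.

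Genes of the 2 ends of the liver lobule varied widely and in different libraries. Glul (glutamine synthetase, chr1:153899944-153909723), which in normal liver marks the hepatocytes next to the central vein, was at 2600.4 CPM in WT1, 614 in WT1359, 111 in WT1838, 268 in WT2 and 251 in WT3. WT1 lay over 4-fold above WT1359 and over 20-fold above WT1838. Cyp2f2 (chr7:27119909-27133660), a cytochrome of the portal side, was at 74.6 CPM in WT1, 595 in WT1359, 490.4 in WT1838, 1360.2 in WT2 and 564 in WT3, lowest in WT1 and highest in WT2. The 2 markers were thus in opposite order in WT1, while WT1359 held the second highest level of both.

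**Figure D3:**
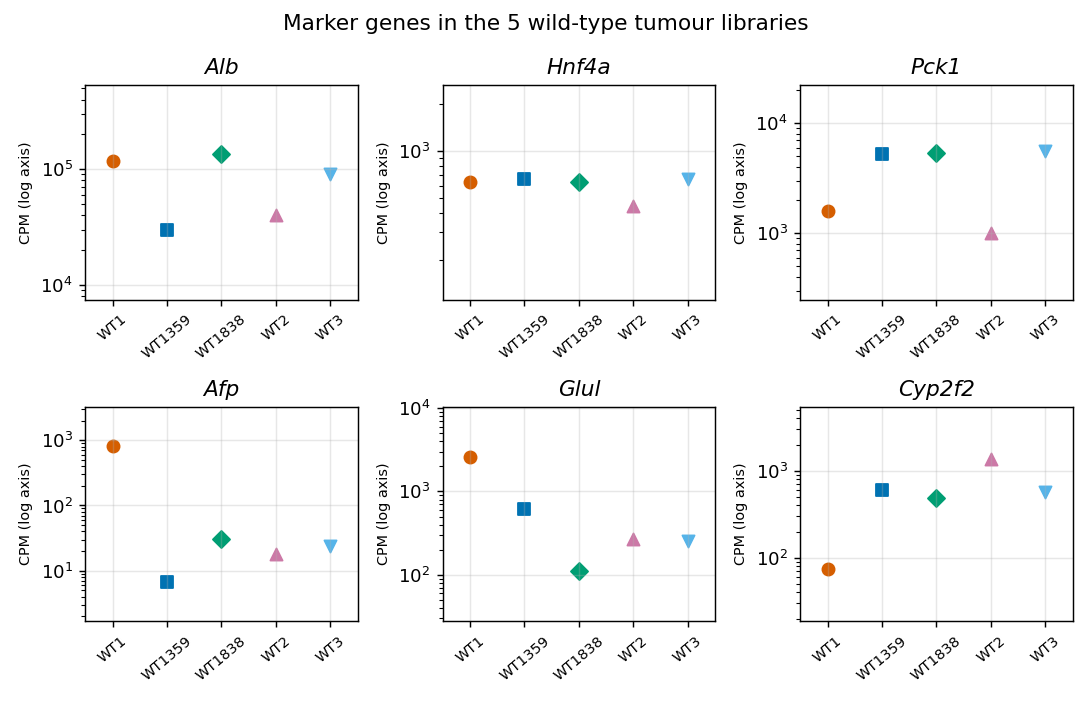
Level in CPM (log axis, with its own scale in each panel) of 6 marker genes, 1 point per library. Hnf4a is nearly flat, Pck1 is lower in WT1 and WT2, Afp and Glul are highest in WT1 and Cyp2f2 is lowest there.

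Targets of beta-catenin in liver, Glul among them, were also highest in WT1. Scores were 5.74, 4.85, 3.42, 3.28 and 4.38 (log2 CPM), 17 of 21 members were highest in WT1 and 18 were variable. Lgr5, a receptor of R-spondins that the pathway induces, was at 21.9 CPM in WT1, 2.60 in WT1359, 1.005 in WT1838, 0.360 in WT2 and 1.97 in WT3. Znrf3, a feedback inhibitor of Wnt receptors, was flatter at 15.3, 9.05, 10.98, 7.75 and 10.9 CPM. The glutamate importer Slc1a2, at 37.02, 86.6, 3.48, 7.79 and 63.2 CPM, and Oat (ornithine aminotransferase), at 1324, 2391, 332, 90.97 and 2307 CPM, departed from that, being higher in the deeper libraries than in WT1. Among 21 pericentral genes, some of which are also beta-catenin targets, 20 were variable, and among 21 periportal genes 13 were. Etnppl (ethanolamine phosphate lyase), a periportal gene, was at 7.12, 627, 51.2, 74.4 and 577 CPM. The Wnt ligands of liver endothelium were low, with Wnt2 at 2.26, 3.48, 0.536, 0.0450 and 2.04 CPM and Wnt9b at 0.201, 4.51, 0.469, 0 and 2.23 CPM.

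**Figure D4:**
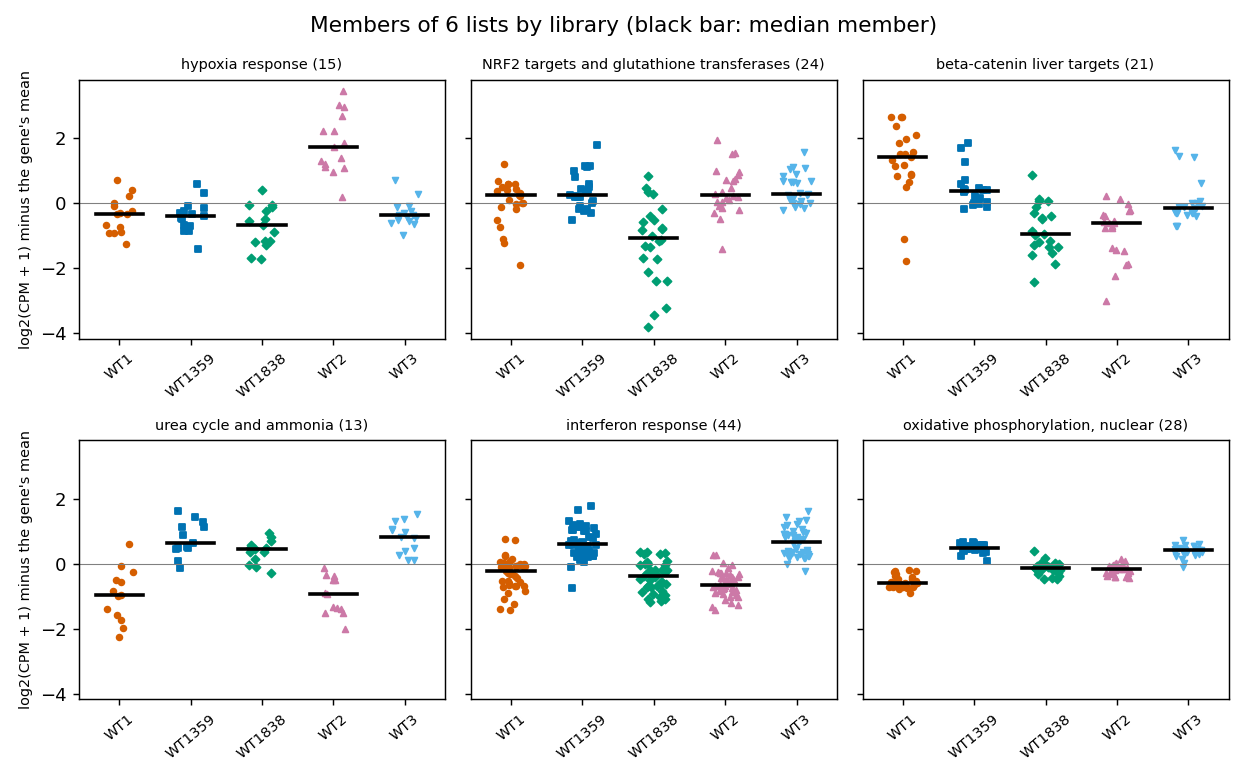
Each point is 1 gene of a list in 1 library, as log2(CPM + 1) minus that gene's mean over the 5 libraries, and black bars are the median member. Hypoxia genes are high in WT2, NRF2 targets low in WT1838, beta-catenin targets high in WT1, urea cycle genes low in WT1 and WT2, and interferon and oxidative phosphorylation genes high in WT1359 and WT3.

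Liver genes that depend on sex in adult mice did not all follow Xist. WT2 was the one library with Xist and no Y-linked counts, yet the male-biased Cyp4a12a, a fatty acid hydroxylase, was highest there at 0.0502 CPM in WT1, 4.03 in WT1359, 0.0670 in WT1838, 99.6 in WT2 and 7.48 in WT3. Its neighbour Cyp4a12b was at 0.0502, 33.9, 0, 34.4 and 23.8 CPM. The male-biased Mup20, a urinary pheromone carrier, was at 148, 3.004, 10.05, 80.7 and 6.37 CPM, and of 20 major urinary protein genes found 5 were kept. Whether reads of these near-identical genes were lost in counting was not tested. Among 20 female-biased genes 16 were variable and 11 were lowest in WT1, where A1bg, a plasma glycoprotein, was nearly absent: it was at 0.702 CPM in WT1, 184 in WT1359, 188 in WT1838, 98.8 in WT2 and 79.8 in WT3. Cyp17a1, a steroid hydroxylase, was at 87.4, 544, 528, 66.96 and 749 CPM, lowest in WT2. The female-biased score was highest in WT1838, or in WT1359 with total counts as the scale. Of 14 male-biased genes kept 8 were variable, with Cyp2d9 at 225, 340.3, 55.5, 298 and 582 CPM. The male-biased score was 3.77, 4.70, 3.60, 5.05 and 4.70 (log2 CPM), highest in WT2. Yet the summed level of the 20 male-biased genes found was lowest in WT2, at 2362, 1824, 6797, 829 and 2993 CPM. Score and sum of this list thus differed in where they placed WT2.

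The growth hormone axis, which sets those sex differences, had a steady score, but 8 of 16 members were variable, and 3 without WT1. Stat5b, its signal transducer, was flat at 70.9, 80.998, 79.1, 73.04 and 81.8 CPM. The IGF-binding proteins differed, with Igfbp1 at 3503 CPM in WT1, 637 in WT1359, 1499.8 in WT1838, 302 in WT2 and 1550.1 in WT3, Igfbp2 at 839, 321, 345, 52.8 and 594 CPM and Igfbp3 at 119, 22.6, 13.5, 404 and 26.1 CPM. Igfbp3 was highest in WT2 and Igfbp1 and Igfbp2 were lowest there.

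The score of fetal and tumour markers was highest in WT1. Afp (alpha-fetoprotein) was at 817 CPM in WT1, 6.72 in WT1359, 31.01 in WT1838, 17.9 in WT2 and 23.9 in WT3, over 20-fold higher in WT1 than in any other library. Gpc3 (glypican 3), a cell-surface proteoglycan of liver cancers, was at 659 CPM in WT1, 18.8 in WT1359, 29.3 in WT1838, 8.15 in WT2 and 260.1 in WT3. It was high in WT3 as well, where Afp was 23.9 CPM, at a level over 10-fold above WT1359. Psat1, a step of serine synthesis, was at 42.5, 2.45, 2.01, 4.46 and 11.3 CPM, highest in WT1. It belongs to the integrated stress response list and not to the oncofetal list.

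Of 34 oncofetal and tumour genes 27 were kept, 24 were variable and 12 were highest in WT1 and 11 in WT2. Ly6d, a small surface protein, was at 421, 252, 66.97, 403 and 287 CPM, lowest in WT1838. Tff3 (trefoil factor 3) was at 106, 37.3, 52.7, 13.1 and 205 CPM, and Spink1, a trypsin inhibitor, was at 9.33, 2.23, 0, 20.9 and 4.98 CPM, with 0 counts in WT1838. Tspan8, a tetraspanin, was at 475 CPM in WT1, 8.58 in WT1359, 211 in WT1838, 59.1 in WT2 and 204 in WT3 and lowest in WT1359. Vil1 (villin) was at 12.4, 2.34, 0.536, 19.05 and 2.13 CPM. No library was highest in more than 12 of 27. Rian, at 5.72 CPM in WT1 and at most 0.0670 in the others, passed the filter through WT1 alone. Bex4, at 4.59 CPM in WT2 and at most 0.911 in the others, passed it through WT2 alone.

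Proliferation genes scored 2.87, 2.60, 1.17, 1.77 and 2.96 (log2 CPM) and were lowest in WT1838. Kif20a, a mitotic kinesin, was at 6.77 CPM in WT1, 5.43 in WT1359, 0.737 in WT1838, 3.33 in WT2 and 9.06 in WT3, and Ccnb1 (cyclin B1) at 5.42, 2.36, 0.0670, 0.856 and 4.79 CPM. That library was lowest in 25 of 32 genes kept, and 17 were variable, or 7 without WT1838. Mcm7, part of the replicative helicase, was flat at 18.6, 20.02, 19.8, 14.2 and 19.2 CPM, and Pcna at 29.1, 41.3, 23.9, 27.5 and 41.1 CPM. Ccnd1 (cyclin D1) was at 102, 56.9, 39.2, 46.5 and 50.4 CPM, highest in WT1. Of 20 p53 targets 4 were variable, or 2 without WT1, and Phlda3, an inhibitor of AKT, was at 56.3, 8.22, 5.96, 16.3 and 11.7 CPM. Among 17 genes of MAPK feedback kept, 8 were variable, or 4 without WT1359. Dusp6, a phosphatase of ERK, was at 195, 46.9, 92.8, 138 and 78.6 CPM, and Areg (amphiregulin), a ligand of the EGF receptor, at 0.752, 0, 0, 7.57 and 0.0719 CPM, highest in WT2.

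Genes of the hypoxia response were highest in WT2. Its score was 4.47, 4.41, 4.03, 6.74 and 4.52 (log2 CPM), 14 of 15 members kept were highest in WT2 and 10 were variable. Adm (adrenomedullin), a vasodilator peptide, was at 3.21 CPM in WT1, 4.01 in WT1359, 2.54 in WT1838, 85.3 in WT2 and 4.15 in WT3, and Ankrd37, a target of hypoxia-inducible factor, at 4.16, 1.44, 2.54, 51.2 and 4.07 CPM. Vegfa, the main endothelial growth factor, was at 51.2 CPM in WT1, 46.2 in WT1359, 113 in WT1838, 286 in WT2 and 59.4 in WT3, so that WT1838 was second highest. Kdm3a, a histone demethylase of the list, was flat at 31.5, 22.6, 26.1, 30.9 and 24.9 CPM. Without WT2, 3 of 15 were variable and the SD of the score was 0.22 instead of 1.08.

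Promoters of 2 of these genes are printed to show the letters that hypoxia-inducible factor is known to recognise. Capitals mark ACGTG on either strand, in windows of GRCm38.p6, Ankrd37 at chr8:45999801-46000100 on the minus strand and P4ha2, a collagen prolyl hydroxylase, at chr11:54100674-54100973 on the plus strand.
Ankrd37 promoter: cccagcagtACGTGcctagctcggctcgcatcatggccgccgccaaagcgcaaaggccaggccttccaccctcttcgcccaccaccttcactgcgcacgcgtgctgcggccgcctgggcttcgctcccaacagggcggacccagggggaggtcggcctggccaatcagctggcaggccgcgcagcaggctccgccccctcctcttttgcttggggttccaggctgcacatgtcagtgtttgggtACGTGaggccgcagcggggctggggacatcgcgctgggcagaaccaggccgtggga
P4ha2 promoter: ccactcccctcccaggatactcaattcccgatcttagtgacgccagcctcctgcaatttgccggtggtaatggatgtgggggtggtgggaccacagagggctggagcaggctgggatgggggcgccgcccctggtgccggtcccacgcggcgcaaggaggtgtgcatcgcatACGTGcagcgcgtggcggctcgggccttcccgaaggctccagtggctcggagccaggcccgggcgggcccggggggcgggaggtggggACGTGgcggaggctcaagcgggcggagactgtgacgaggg
The windows held 2 and 2 matches. Of 13 list members with a window 10 held ACGTG, against 28.99% of genes kept with a window. P4ha2 was at 2.56 CPM in WT1, 7.21 in WT1359, 1.005 in WT1838, 41.1 in WT2 and 4.07 in WT3. WT2 was again highest.

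Glycolytic genes were also highest in WT2. The first gene below, Hk2, is also a member of the hypoxia list. Hk2 (hexokinase 2), which is low in normal hepatocytes, was at 8.28 CPM in WT1, 7.62 in WT1359, 4.15 in WT1838, 90.6 in WT2 and 4.98 in WT3, and the lactate exporter Slc16a3 at 3.46, 2.02, 1.67, 24.5 and 4.94 CPM. The liver's own isozymes were also highest in WT2, in 7 of 8 genes, with pyruvate kinase Pklr at 284 CPM in WT1, 116 in WT1359, 109 in WT1838, 495 in WT2 and 125 in WT3. In the list of widely expressed isozymes 13 of 18 were highest in WT2. Ldha (lactate dehydrogenase A) was at 1038, 554, 597, 1051 and 624 CPM, close in WT1 and WT2. Without WT2, 0 of the 8 and 1 of the 18 were variable, against 3 and 7 with it.

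The integrated stress response scored 4.51, 3.30, 2.91, 4.01 and 3.73 (log2 CPM), highest in WT1. Atf3, an early stress factor, was at 22.7, 8.45, 5.09, 67.8 and 9.13 CPM. Fgf21, a hormone that the stressed liver releases and not a member of this list, was at 17.3, 2.08, 0.469, 42.96 and 2.54 CPM. Both were highest in WT2. Atf4 was at 135, 82.7, 117, 109 and 103 CPM. In the list 9 of 20 genes were highest in WT1 and 6 in WT2, the latter near the 23.5% of all genes, and 3 were lowest in WT2. Aldh1l2, a mitochondrial folate enzyme, was at 7.52, 0.172, 0.268, 0.811 and 0.168 CPM, highest in WT1. It was below 1 CPM in every other library and passed the filter through WT1 alone, so its place among the 9 carries no weight.

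Early-response, YAP and ductal genes were each highest in WT2 for most members. Of 16 immediate early genes kept 10 were highest in WT2 and 7 were variable, or 3 without WT2 and 3 without WT1838. Egr1, an early growth response factor, went against this at 78.4, 30.3, 98.05, 38.5 and 215 CPM, with WT3 highest. Of 16 targets of YAP, a factor of cell contact and stretch, 10 were highest in WT2, with Cyr61 at 15.05 CPM in WT1, 16.6 in WT1359, 11.4 in WT1838, 48.6 in WT2 and 13.6 in WT3 and Ctgf, a like matrix protein, at 35.7, 51.3, 20.6, 33.1 and 48.4 CPM. Of 23 ductal and progenitor genes kept 15 were highest in WT2 and 13 were variable. Anxa13, an annexin of polarised epithelium, was at 0.752 CPM in WT1, 23.9 in WT1359, 1.27 in WT1838, 53.2 in WT2 and 36.4 in WT3, and Cldn4 (claudin 4), of tight junctions, at 0.150, 1.70, 0.0670, 4.05 and 2.44 CPM. In both genes the deeper libraries lay between WT2 and the other 2. The bile duct keratin Krt19 was at 1.56, 4.96, 1.88, 10.1 and 8.72 CPM and Epcam at 1.71, 5.19, 3.21, 10.5 and 9.51 CPM, both lowest in WT1. Krt8, a keratin of hepatocytes and ducts, was at 819, 400.4, 362, 949 and 430.1 CPM.

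Interferon-induced genes were higher in both deeper libraries. Of 44 genes kept, 37 lay above all 3 shallower libraries in WT1359 and WT3, against 18.2% of all genes, and 15 were variable. With counts thinned to the smallest library 36 lay so, and with total counts as the scale 39. Isg15, a ubiquitin-like protein, was at 21.6 CPM in WT1, 88.7 in WT1359, 22.6 in WT1838, 13.3 in WT2 and 89.8 in WT3, Ifit1, which binds foreign RNA, at 11.5, 62.3, 8.10, 6.53 and 61.4 CPM, and Rsad2 (viperin) at 17.1, 162, 25.1, 23.6 and 128 CPM. Within the shallower libraries the score had an SD of 0.16, against 0.66 over 5. Irf1, a factor of interferon gamma signalling, was flat at 41.1, 46.3, 41.5, 32.9 and 39.4 CPM. Beta-2 microglobulin (B2m), the light chain of class I molecules, was flat at 1531, 1660.5, 1349, 1565 and 1605 CPM.

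Promoters of Ifit1 and Isg15 are printed since the list shares a known element. Capitals mark GAAANNGAAA on either strand, with N for any base, in windows of GRCm38.p6, Ifit1 at chr19:34640639-34640938 on the plus strand and Isg15 at chr4:156200769-156201068 on the minus strand.
Ifit1 promoter: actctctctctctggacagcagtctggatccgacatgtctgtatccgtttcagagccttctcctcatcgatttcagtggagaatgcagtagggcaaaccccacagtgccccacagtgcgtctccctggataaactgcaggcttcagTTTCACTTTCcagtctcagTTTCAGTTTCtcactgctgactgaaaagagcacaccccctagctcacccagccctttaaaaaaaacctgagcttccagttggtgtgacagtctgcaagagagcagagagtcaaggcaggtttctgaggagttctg
Isg15 promoter: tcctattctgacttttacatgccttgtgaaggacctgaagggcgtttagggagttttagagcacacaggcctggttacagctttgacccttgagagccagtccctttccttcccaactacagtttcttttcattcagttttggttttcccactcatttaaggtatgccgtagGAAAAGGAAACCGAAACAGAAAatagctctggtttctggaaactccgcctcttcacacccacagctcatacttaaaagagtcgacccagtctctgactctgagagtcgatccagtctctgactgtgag
They held 2 and 3 matches, which overlap in Isg15. Of 32 members with a window 20 held the element, against 3.86% of all genes kept with a window.

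The largest differences of single genes also marked the deeper pair. Ren1 (renin, chr1:133350510-133360325), the enzyme that starts angiotensin formation and is made mainly in the kidney, was at 0 CPM in WT1, 1353 in WT1359, 0.0670 in WT1838, 0.0450 in WT2 and 1156 in WT3, with 63057 and 48229 counts in WT1359 and WT3 and 0, 1 and 1 in WT1, WT1838 and WT2. Pappa2, a protease of IGF-binding proteins, was at 0, 47.5, 0, 0 and 68.95 CPM, and Wnt10a, a Wnt ligand, at 0, 39.1, 0.268, 0.135 and 38.4 CPM. Tg (thyroglobulin), a thyroid protein, was at 0.150, 20.9, 0.0670, 0 and 17.3 CPM, and the peptide transporter Slc15a1 at 0, 7.49, 0, 0 and 8.77 CPM. Of the 15 genes with the largest SD, 11 were high in both deeper libraries and near 0 in the other 3. In all, 50 genes lay at least 4-fold above the shallower libraries in both, and 6 at least 4-fold below.

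**Figure D5:**
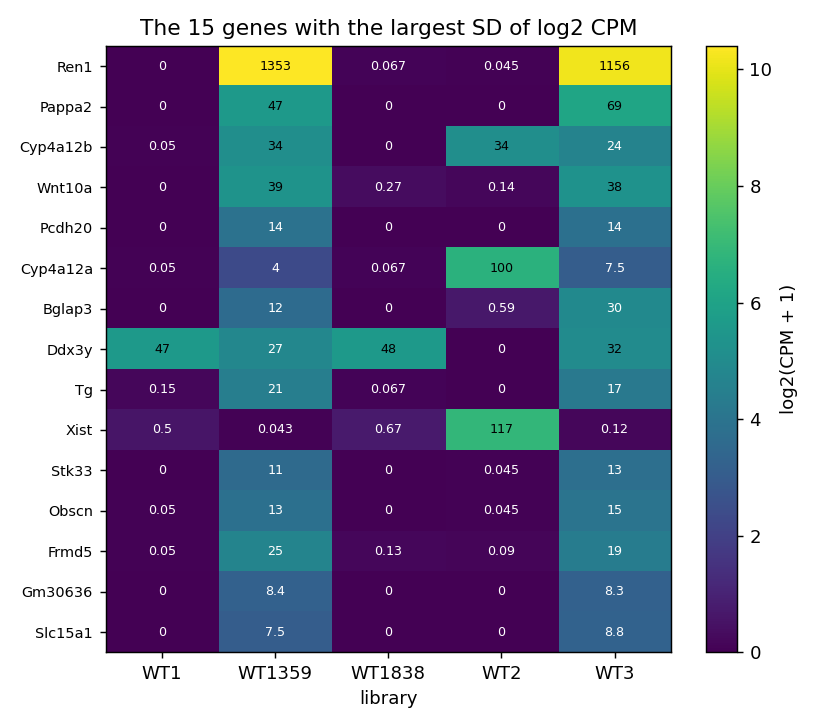
Colour shows log2(CPM + 1) and the printed figure the CPM of the 15 genes with the largest SD of log2 CPM, by library. Ren1, Pappa2 and 9 other genes are high in WT1359 and WT3, Xist is high in WT2, where Ddx3y is at 0, and Cyp4a12a and Cyp4a12b are near 0 in WT1 and WT1838.

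WT2 had the most genes to itself: 120 lay at least 4-fold above and 54 below every other library. The corresponding numbers were 27 and 89 for WT1, 35 and 82 for WT1838, 3 and 10 for WT1359 and 1 and 1 for WT3. A gene that is high or low in both WT1359 and WT3 is counted for neither. The gene Bpifa6 had 424 counts in WT2 and 0 in the other 4. The growth factor Pgf was at 2.01, 0.215, 0.134, 15.6 and 0.240 CPM and the vascular peptide Apln (apelin) at 16.9, 0.536, 0.268, 39.2 and 1.20 CPM. Over the 1000 most variable genes the first principal component held 42.5% of the variance, with WT2 (45.8) at one end and WT1 (−40.3) and WT1838 (−39.5) at the other, and the second held 34.4%, with WT2 (42.8) against WT1359 (−32.5) and WT3 (−31.5).

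Stromal genes were present in every library and lowest in WT1838. Of 40 genes of collagens and matrix, all kept, 24 were variable, 29 were lowest in WT1838 and 21 highest in WT2, and without WT1838 12 were variable, without WT2 15. Col1a1, the main fibrillar collagen, was at 133 CPM in WT1, 28.3 in WT1359, 11.2 in WT1838, 91.01 in WT2 and 23.6 in WT3, and Sparc, a matrix protein, at 188, 109, 82.2, 265 and 95.98 CPM. Col5a2, another fibrillar collagen, was at 26.99, 147, 8.04, 22.97 and 85.5 CPM, high in the deeper pair. Fn1 (fibronectin), which hepatocytes also secrete, was at 4076, 1504, 3117, 1286 and 2498 CPM, and Col18a1, which they also make, at 878, 875, 1151, 623 and 1049.7 CPM.

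Stellate cell and fibroblast genes did not share 1 order. Lrat, which stores retinol in stellate cells, was at 13.3 CPM in WT1, 10.4 in WT1359, 5.29 in WT1838, 17.97 in WT2 and 6.30 in WT3, and Acta2, the actin of activated stellate cells and smooth muscle, at 24.1, 21.1, 5.49, 2.39 and 13.2 CPM. Acta2 was lowest in WT2, where Col1a1 was second highest. Reln (reelin), a stellate cell gene, was at 159, 25.3, 24.7, 22.3 and 55.4 CPM, highest in WT1. Of 22 genes kept 9 were variable, or 5 without WT2.

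The endothelium differed between its sinusoidal and its vessel genes. Sinusoidal genes were highest in WT1359 in 17 and lowest in WT2 in 14 of 20 genes kept, with the lectin Clec4g at 43.9 CPM in WT1, 92.6 in WT1359, 55.8 in WT1838, 15.7 in WT2 and 48.7 in WT3 and the scavenger receptor Stab2 at 49.4, 91.9, 72.9, 36.7 and 59.1 CPM. The general vessel gene Cdh5 (VE-cadherin), at 79.7, 84.8, 73.3, 98.8 and 67.6 CPM, was flat. Angpt2 (angiopoietin 2), made by sprouting vessels, was at 9.43 CPM in WT1, 3.30 in WT1359, 5.89 in WT1838, 36.9 in WT2 and 3.09 in WT3, highest in WT2. Of the sinusoidal genes 5 and of 27 vessel genes 9 were variable, or 2 and 3 without WT2. Without WT1359, 2 sinusoidal genes were variable, and without WT1838, 5 vessel genes.

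Kupffer cells, the resident macrophages of the liver, gave less signal in WT2. Clec4f, their defining lectin, was at 150.1 CPM in WT1, 249 in WT1359, 193 in WT1838, 47.4 in WT2 and 169.99 in WT3, Cd5l at 283, 448, 333, 100.2 and 359.6 CPM and the scavenger receptor Marco at 21.2, 9.05, 13.7, 0.405 and 6.54 CPM. Complement C1qa, shared by macrophages, was at 103, 174, 92.8, 115 and 122 CPM and not lowest in WT2. Of 18 Kupffer genes kept 10 were lowest in WT2 and 7 were variable, or 2 without it. Among recruited macrophage genes, 19 of 28 were lowest in WT1838, with Gpnmb, of lipid-laden macrophages, at 104 CPM in WT1, 40.4 in WT1359, 3.28 in WT1838, 90.2 in WT2 and 37.1 in WT3 and the elastase Mmp12 at 48.8, 21.03, 2.95, 39.5 and 16.5 CPM. Spp1 (osteopontin), which ductal cells and tumour hepatocytes also make, was at 336, 115, 151, 835 and 149 CPM. Lyz2 (lysozyme) was at 279.5, 306, 179, 254 and 209 CPM.

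Few lymphocyte genes were kept. Cd3e, a chain of the T cell receptor complex, was at 1.61 CPM in WT1, 2.34 in WT1359, 1.54 in WT1838, 1.26 in WT2 and 1.75 in WT3, and 15 of 34 T and NK cell genes were kept. Ccl5, a chemokine of T and NK cells, was at 8.03, 15.5, 4.82, 3.83 and 14.4 CPM. The T cell kinase Zap70, at 10.2, 34.8, 38.7, 5.22 and 39.6 CPM, varied more than Cd3e. For B cells, Cd79a was at 2.21, 1.35, 3.08, 1.40 and 3.02 CPM and Jchain, which joins immunoglobulin chains in plasma cells, at 56.9, 16.5, 63.02, 15.9 and 30.7 CPM. The antibody constant gene Igkc was at 0 counts in all 5 libraries, as were H2-D1, a class I gene of nearly all cells, and Apom, an apolipoprotein of liver. These last 2 were chosen after their values were seen, and a gene at 0 is given only as listed at 0. The class II gene Cd74 was at 268, 391, 138, 571 and 252 CPM and H2-Ab1 at 10.6, 2.23, 2.01, 36.7 and 1.61 CPM, both highest in WT2.

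Of 17 neutrophil genes 12 were kept, with S100a8 at 5.47, 4.98, 8.10, 11.1 and 5.39 CPM and Ly6g at most 0.192 CPM. Haemoglobin RNA was highest in WT1838, with Hba-a1 at 94.3 CPM in WT1, 33.8 in WT1359, 216 in WT1838, 54.4 in WT2 and 47.9 in WT3, and 8 of 12 erythroid genes kept were lower in both deeper libraries than in all 3 shallower ones. Markers of other tissues were near 0: Adipoq of fat at most 0.0858 CPM, Ckm of muscle at most 0.0240 CPM and Prss2 of pancreas at 0 counts. Of 22 such genes 2 were kept, the elastase Cela1, at 59.6, 11.3, 38.8, 21.1 and 31.5 CPM, and Vil1.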

How the data were processed

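Read counts per gene symbol, as deposited by the authors, were used for the 5 wild-type libraries of 17462102 to 45161928 counts. Reads had been aligned with HISAT2 to mm10, per the submitters' processing notes, while the program that counted them, its annotation and its use of strand are not given in the sources here. Counting may split or drop reads of near-identical genes and of overlapping genes on opposite strands. Counts were scaled by TMM in edgeR 4.0.16 (R 4.3.3), with factors of 0.990, 1.05, 0.855, 1.22 and 0.924 in WT1, WT1359, WT1838, WT2 and WT3. Values per library are CPM, log2 CPM with a prior count of 2 served for ranges and scores, and 13095 genes with a mean of at least 1 CPM were kept. Every pair of libraries differed beyond counting noise. The chi-square per degree of freedom was 115.7 for WT1838 and WT3, the lowest of the pairs, and 157.9 for WT1359 and WT3. No library was therefore treated as a repeat count of another. This measure cannot tell whether 2 libraries, WT1359 and WT3 among them, came from 1 tumour or 1 animal. TPM used exon lengths of GENCODE release M21 (GRCm38), found for 34545 symbols, and symbols without one held 0.290% to 0.320% of counts. Tables were made with pandas 2.3.3 and numpy 2.4.6, and the steps were tested on simulated data. Promoter windows are from RefSeq (GRCm38.p6), with a window for 9663 genes kept.

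The 58 gene lists and their members were chosen with earlier results of these data known. Genes were named by rule: the 20 with the highest mean TPM, the 15 with the largest SD, from every list its 3 most abundant members, its 3 widest by SD and its steadiest, fixed markers, and the 5 strongest loadings at each end of the first 2 principal components. With 1 group and no contrast, values were described without tests between groups. Alternatives were RLE size factors, total counts alone, other filters, a prior count of 0.5, 500 or all genes in the components, the median SD of members in place of the SD of scores, thinning to the smallest library, leaving out libraries, and the 3 libraries with 1 digit in their titles. The knockout libraries were not analysed here, and a few genes that the rule names are not reported here.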

Additional observations from a re-analysis of the deposited data

Results flagged for a closer look

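A library is listed here when the gap between it and the nearest other library, divided by the range of all 5, was above 0.71, the 95% critical value of Dixon's ratio for 5 samples. Of 57 list scores and 182 genes looked at, 4 and 21 passed. Chance passes about 1 in 20 groups, but many of these genes were named for their large spread and Kcnq1ot1 after its values were seen, so the number that passed is not read against that rate. WT2 was the library in 3 of the 4 scores and 14 of the 21 genes.

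WT2 was far above the rest in the score of liver isozymes of glycolysis (ratio 0.867) and of the hypoxia response (0.820), and far below in that of Xist and the Y-linked genes (0.800). Among genes, WT2 was far above in Adm (0.863), Hk2 (0.778), Thrsp (0.737), Cyr61 (0.741), Xist (0.728) and Bpifa6, which has counts in WT2 alone (1). It was far below in the Y-linked Ddx3y (0.912), Eif2s3y (0.907), Kdm5d (0.923) and Uty (0.889), in Hnf4a (0.862), Nr0b2 (0.827) and Serpina1e (0.711), and in Mcm7 (0.778). For Hnf4a and Mcm7 the gap was large only against the closeness of the other 4 libraries, which spanned 9.30 to 9.38 log2 CPM for Hnf4a and 4.22 to 4.33 for Mcm7.

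WT1838 was far below the rest in the score of NRF2 targets (0.768) and in Gstm3 (0.846), Slc7a11 (0.796) and Ly6d (0.720), and far above in Kcnq1ot1 (0.770). WT1 was far below in A1bg (0.844) and COX1 (0.753). WT1359 was far below in Sqle (0.720). WT3 was set apart in none of these 57 scores and 182 genes.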

How the results depend on the processing

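The 1965 genes with a range of at least 4-fold became 5127 with no filter on low counts, 688 with a mean of at least 10 CPM and 1230 with the 3 libraries whose titles have 1 digit, where fewer genes or libraries enter by construction in the last 2. Leaving out 1 library, where fewer libraries also enter by construction, gave 1290 to 1874 genes, with the lowest number without WT2. Of the 10 lists with the widest scores, 5 to 10 were still among the widest 10 when a library was left out, 5 without WT2 and 6 without WT1. The first principal component held 42.5% of the variance, 49.0% to 60.3% when a library was left out, and 67.04% in the 3 shallower libraries, a setting added after the data were seen. Fewer libraries leave fewer components, so the share of the first tends to be larger there by construction. RLE size factors, a prior count of 0.5 and thinning moved no list's SD by over 1.5 times, and 57 of 57 lists stayed within it. With total counts alone 52 of 57 did, the highest library was the same in 42 of 58 lists and the lowest in 44 of 58. No paired analysis was possible because the 5 libraries are 1 group with no contrast. The cause of these shifts was not tested. Depth limits genes near 1 CPM most in the shallower libraries.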
